A study of Mus musculus with 6 samples.

Results

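The 9 genes described here encode components, a regulator and receptors of the complement system: the C1q chains C1qa, C1qb and C1qc, the central components C3 and C4b, the inhibitor Cd59a, and the receptors Itgam, C3ar1 and C5ar1. They were taken by symbol from a table of 34745 genes, in which 10 rows carry these symbols. The symbol Itgam stands on 2 rows, the second of which GENCODE calls Gm49368. That row held at most 3 counts in any library, did not pass the filter on low counts, and is not used below. The other 9 rows all passed the filter and were among the 15267 genes tested.

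RNA of the dorsal striatum was measured in 3 libraries from Ash1l heterozygous mice (labelled Ash1l_het, here Ash1l het) and 3 from wild type (WT) mice. All animals were aged 1 year and of the C57BL/6 strain, and no treatment is described. Ash1l encodes a histone H3 lysine methyltransferase. The sources used here do not say how the allele was made, which part of the gene it alters, or whether each library comes from its own animal. A p-value here therefore speaks only of the spread among these 6 libraries.

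Complement is a cascade of secreted proteins that marks surfaces for removal. C1q binds a target and starts the classical pathway, whose proteases cleave C4 and then C3; the cleaved fragments stay on the surface as tags or act as soluble signals on receptors, and the pathway can end in a pore that CD59 blocks. In the brain, C1q is made mainly by microglia, C4 and C3 can be made by reactive astrocytes and other glia, and tagging of synapses by C1q and C3 is known from development and disease models.

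Library totals ran from 12080663 to 18798694 counts. Levels are given as CPM, counts scaled to library size with the TMM factors of edgeR, a scaling that corrects for differences in library composition. The targeted gene was lower in each Ash1l het library (281, 198 and 253 CPM) than in any WT library (308, 295 and 293 CPM). The Ash1l difference was -0.29 on the log2 scale (SE 0.13) and did not pass (edgeR quasi-likelihood adjusted p = 0.858). The labels describe males, yet the female transcript Xist was high throughout, at 1956 to 2957 CPM. Of 4 genes on the Y chromosome (Eif2s3y, Kdm5d, Uty and Ddx3y), only Kdm5d had a count, a single one in 1 library. Striatal neuron markers were high in every library, with sums of 7356 to 9074 CPM in Ash1l het and 7809 to 8917 CPM in WT for 10 genes, including Pde10a, Penk and Ppp1r1b.

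The C1q genes lie side by side on the minus strand of chromosome 4 in GRCm38, within 18675 bases from 136880129 to 136898803. C1qb (ENSMUSG00000036905) spans 136880129 to 136886187, C1qc (ENSMUSG00000036896) 136889804 to 136893065, and C1qa (ENSMUSG00000036887) 136895917 to 136898803. C4b (ENSMUSG00000073418; 34728380 to 34743882, minus strand) and C3 (ENSMUSG00000024164; 57203970 to 57228136, minus strand) are both on chromosome 17. Cd59a (ENSMUSG00000032679) is on chromosome 2 at 104095801 to 104115354, plus strand. Itgam (ENSMUSG00000030786; 128062640 to 128118491, plus strand) and C5ar1 (ENSMUSG00000049130; 16246743 to 16259540, minus strand) are on chromosome 7, and C3ar1 (ENSMUSG00000040552; 122847138 to 122856161, minus strand) is on chromosome 6. All are annotated as protein coding.

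Sequence just upstream of the start is shown for C1qb and C1qc, because the C1q chains moved together across libraries, and for C3, which followed another pattern. The bases come from RefSeq's GRCm38.p6 promoter table, which held 7 of the 9 genes. They are written 5′ to 3′ on the gene's strand and leave out any base inside a GENCODE exon of the gene. The RefSeq start of C1qb lies a few bases upstream of its GENCODE start. The C1qb stretch is chr4:136886201-136886450, the C1qc stretch chr4:136893066-136893164, and the C3 stretch chr17:57228137-57228386, all on the minus strand. Capitals mark matches on either strand to the letters GGAAGT, a core bound by ETS factors such as the myeloid regulator PU.1, to TTGCNNAA, a C/EBP-type pattern, or to GGGA and CC with any 4 bases between them, a loose NF-kappa-B-type pattern.
C1qb: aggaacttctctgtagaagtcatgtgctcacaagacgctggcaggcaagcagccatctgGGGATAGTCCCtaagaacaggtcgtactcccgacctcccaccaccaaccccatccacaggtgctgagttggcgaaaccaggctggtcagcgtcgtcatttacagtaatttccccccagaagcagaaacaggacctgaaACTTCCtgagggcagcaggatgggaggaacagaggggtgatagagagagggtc
C1qc: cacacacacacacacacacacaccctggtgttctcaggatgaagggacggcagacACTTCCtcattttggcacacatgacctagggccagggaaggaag
C3: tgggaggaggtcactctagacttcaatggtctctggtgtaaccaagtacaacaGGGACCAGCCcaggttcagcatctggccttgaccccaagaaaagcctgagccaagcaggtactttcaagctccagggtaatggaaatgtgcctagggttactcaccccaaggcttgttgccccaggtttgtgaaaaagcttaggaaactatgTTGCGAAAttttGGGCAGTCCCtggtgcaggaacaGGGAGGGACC
In C1qb and C1qc the ETS letters stand on the opposite strand as ACTTCC, and the C3 stretch holds the single C/EBP-type match. Among 27025 promoters with the same 250 bases upstream, 20.0% held the ETS letters, 9.55% the C/EBP-type letters and 17.3% the NF-kappa-B-type letters. In C1qb the 2 NF-kappa-B-type matches overlap, and C1qc has 1 in the part left out. A match of this kind is only a match of letters.

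Per length, the 3 C1q transcripts were the most abundant of the 9 genes in each WT library. FPKM, the authors' count scaled to gene length and library size, was 41.5 ± 1.99 for C1qb, 39.6 ± 3.71 for C1qa and 20.6 ± 1.65 for C1qc in WT (mean ± SD, n = 3). C1qb lay slightly above C1qa in each WT library (43.3 against 42.8, 39.3 against 35.6 and 41.8 against 40.5 FPKM). Their means did not differ beyond the spread between libraries, and C1qc lay below both in every WT library. C4b followed at 11.8 ± 5.63 FPKM in WT and ran from 7.27 to 18.1. Then came Itgam at 4.38 ± 0.452 and Cd59a at 3.33 ± 0.429 FPKM, whose WT values did not overlap. C3 (1.11 ± 0.212 FPKM) and C3ar1 (1.01 ± 0.472 FPKM) overlapped in WT, and C5ar1 was lowest at 0.284 ± 0.0231 FPKM.

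In Ash1l het the order changed at a few places. C4b moved above C1qc in Ash1l het replicates 1 and 2 (34.7 against 19.5 FPKM, and 61.8 against 40.9 FPKM), but not in replicate 3 (8.77 against 17.9 FPKM). The 3 C1q genes made up 79.4%, 84.4% and 83.6% of the summed FPKM of the 9 genes in the WT libraries, and 68.2%, 75.1% and 84.3% in Ash1l het. Replicate 3 of Ash1l het thus lay inside the WT range of this share. C4b made up 13.2%, 6.50% and 8.17% in WT and 22.5%, 20.4% and 7.29% in Ash1l het.

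**Figure D1:**
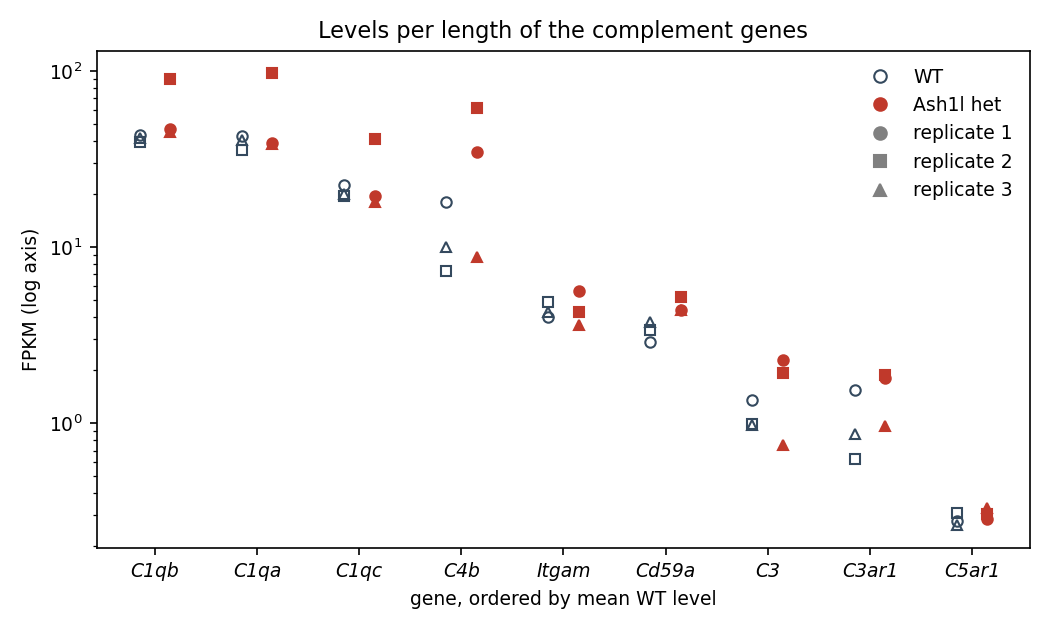
FPKM of the 9 complement genes (log axis) in each library, ordered by mean WT level, with open symbols for WT, filled symbols for Ash1l het and a symbol shape per replicate. C1qb and C1qa lie near 40 FPKM in WT, and C4b spreads from 7.27 to 61.8 FPKM over the 6 libraries.

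Whether complement transcripts differ with Ash1l genotype was asked with the edgeR quasi-likelihood test across all 15267 genes. None of the 9 complement genes passed at an adjusted p under 0.05, where 0.0131% of all tested genes did (2 genes). By the same test 1 of the 9, Cd59a, had an unadjusted p under 0.05, against 5.78% of all tested genes in either direction and 3.1% in the higher direction. DESeq2 and edgeR's exact test also called none of them, where they called 0.183% and 0.269% of the genes they tested. By these tests 2 (Cd59a and C1qb) and 3 (these and C4b) of the 9 had an unadjusted p under 0.05, as did 3.75% and 5.06% of all genes. By sign, 8 of the 9 were higher in Ash1l het, against 51.4% of all tested genes, and their median log2 fold change was 0.49 against 0.01 for all tested genes. In 2 of the 9, C1qb and Cd59a, the lowest Ash1l het value exceeded the highest WT value, which held for 6.18% of all tested genes. Without Ash1l het replicate 2, the median of the 9 fell to 0.14 and 7 of them were higher by sign. Without Ash1l het replicate 3 the median was 0.63, and 5 of the 9 (C1qb, C3, C4b, Cd59a and C3ar1) had an unadjusted edgeR p under 0.05, as did 10.9% of all genes then tested.

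The chains of C1q, the recognition protein of the classical pathway, were high in 1 library. C1qa had 40.3, 94.6 and 41.2 CPM in Ash1l het, and 44.5, 38.4 and 42.4 CPM in WT. Only Ash1l het replicate 2 left the WT range upward, while replicates 1 and 3 lay within it. C1qc stood at 41.6, 82.6 and 39.9 CPM in Ash1l het and at 48.3, 43.3 and 43.1 CPM in WT, so its other 2 Ash1l het libraries lay below WT. C1qb stood at 50.4, 91.3 and 50.7 CPM in Ash1l het and at 47.1, 44.5 and 45.7 CPM in WT. For C1qb the groups did not overlap, with replicates 1 and 3 of Ash1l het just above the highest WT library.

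None of the fitted C1q differences passed. The log2 fold changes (Ash1l het over WT) were 0.49 (SE 0.35) for C1qa, 0.49 (SE 0.23) for C1qb and 0.28 (SE 0.28) for C1qc, with edgeR adjusted p-values of 0.897, 0.859 and 0.910. The 95% intervals in folds ran from 0.780 to 2.53 for C1qa, 0.973 to 2.02 for C1qb and 0.768 to 1.93 for C1qc. Without Ash1l het replicate 2 the log2 fold changes became -0.04, 0.14 and -0.14. A two-sided exact permutation test on C1qb gave p = 0.1, and no smaller p is possible with 3 libraries a group.

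The 3 chains, which assemble together into the C1q molecule, kept broadly similar proportions in each library. The FPKM ratio of C1qa to C1qb was 0.837, 1.08 and 0.851 in Ash1l het and 0.989, 0.904 and 0.971 in WT. For this ratio the groups overlapped. The ratio of C1qc to C1qb was 0.418, 0.458 and 0.398 in Ash1l het and 0.520, 0.493 and 0.478 in WT. Every Ash1l het value of this second ratio lay below every WT value, a difference that was not tested. After centring each gene on its mean over the 6 libraries, pairs of chains differed by a root mean square of 0.12 to 0.13 on the log2 scale. Against C4b, the most distant member, the same measure was 0.79 to 0.84. It was 0.27 to 0.39 against Cd59a, and 0.41 to 0.55 against C3, Itgam and C3ar1. Each chain also had 5 genes outside the members that were nearer to it than the other chains, at 0.05 to 0.11. Moving together was therefore not particular to the C1q chains. By this measure over 11434 genes with at least 5 CPM, the genes most like the mean of the chains included Snapc5, Rpl39-ps, Nmral1 and Rps26, at 0.04 to 0.09. These values describe 6 libraries, of which 1 sets most of the pattern.

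Several other measures set Ash1l het replicate 2 apart in the same way. Microglia markers summed over 15 genes to 755 CPM in that library, and the other 5 had 518 to 564 CPM. Among the most abundant of them, the lysosomal protease gene Ctss was at 132 CPM there, against at most 78.1 CPM elsewhere. The surface receptor genes Csf1r and Cx3cr1, from the same list, were at 104 and 75.9 CPM, against 106 to 118 and 59.8 to 70.4 CPM elsewhere. The C1q genes together came to 0.356 of the microglia marker sum in this library and to 0.241 to 0.254 in the other 5. In bulk tissue, more cells of a type and more RNA per cell cannot be told apart.

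Short genes were also higher in that library. The 1170 tested genes under 1500 bases had a median log2 level 0.20 above the mean of the other 5 libraries, the 2720 genes of 1500 to 3000 bases 0.09, and the 11377 longer genes -0.01. All these lengths were derived from the deposited counts and FPKM, and came to 1040 bases for C1qa, 1088 for C1qb and 2149 for C1qc. In that library the 3 genes stood 1.18, 0.93 and 0.93 above the mean of the other 5 on the log2 scale. Ribosomal protein genes, which are short, summed to 3993 CPM there, against 2635 to 3154 CPM elsewhere. The part of gene length in the C1q values was not tested.

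**Figure D2:**
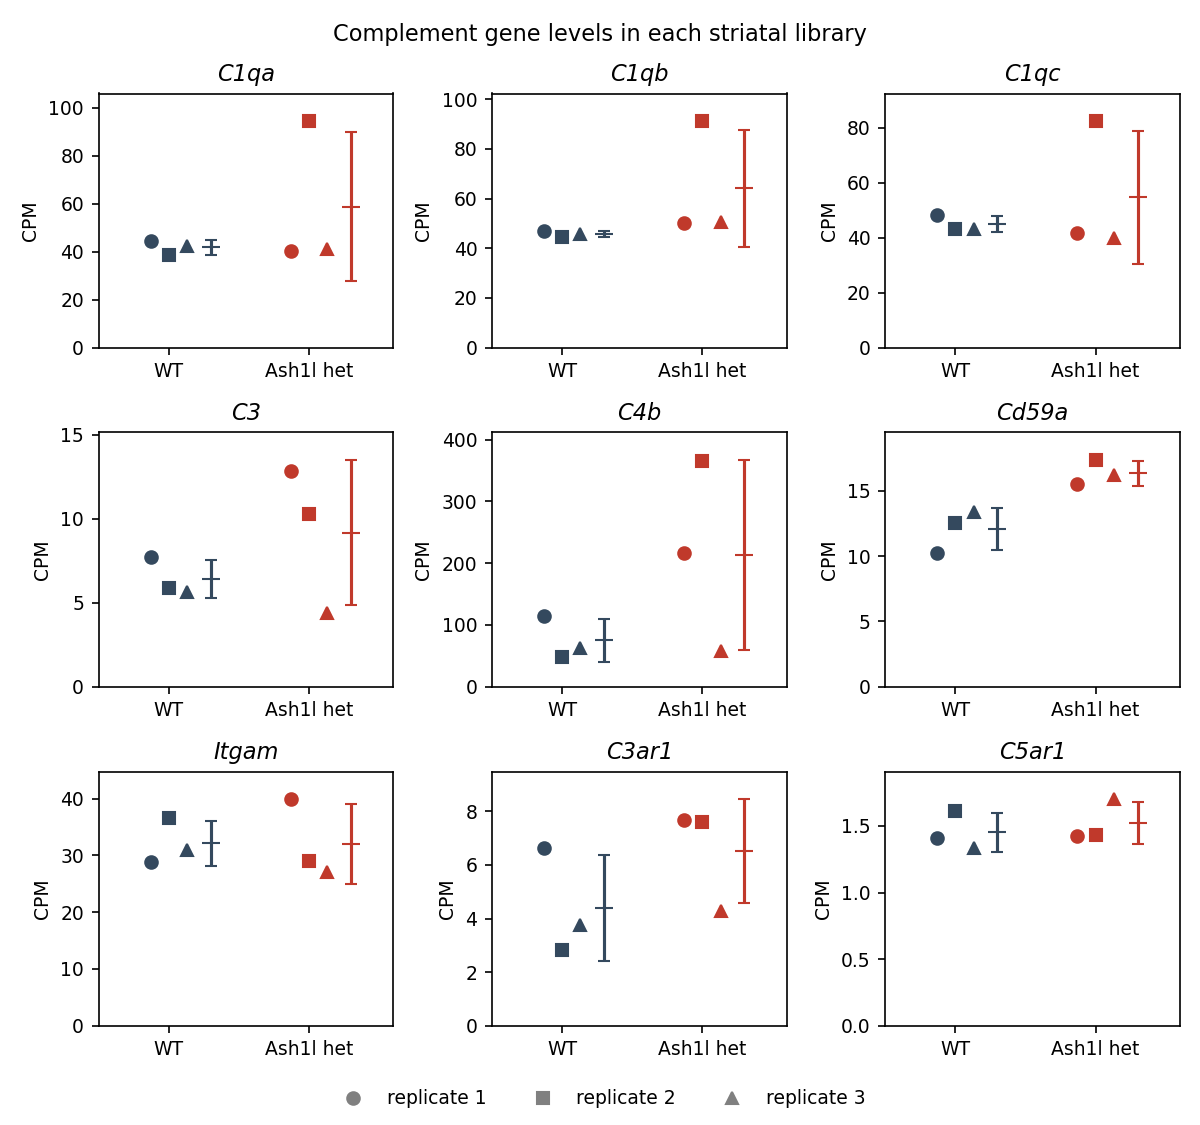
CPM of each complement gene in the 3 WT and 3 Ash1l het libraries, with symbol shapes for replicates and bars for mean and SD beside the points. The C1q panels show 1 high library (Ash1l het replicate 2, 82.6 to 94.6 CPM), and Cd59a shows Ash1l het above WT in all 3 libraries.

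C4b and C3, whose cleaved products tag surfaces, were high in 2 of the 3 Ash1l het libraries. C4b stood at 217, 366 and 57.1 CPM in Ash1l het and at 114, 47.6 and 63.3 CPM in WT. Replicates 1 and 2 of Ash1l het exceeded all WT libraries, and replicate 3 lay inside the WT range. Its log2 fold change of 1.51 (SE 0.76) was the largest of the 9 genes and did not pass (edgeR adjusted p = 0.878). The 95% interval ran from 0.738-fold to 11.0-fold. The log2 fold change was 0.87 without Ash1l het replicate 2 and 1.96 without replicate 3.

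C3 stood at 12.9, 10.3 and 4.40 CPM in Ash1l het and at 7.70, 5.86 and 5.62 CPM in WT. As with C4b, replicates 1 and 2 of Ash1l het were above WT, but replicate 3 was below every WT library. Its difference was 0.52 on the log2 scale (SE 0.36, edgeR adjusted p = 0.893), with an interval from 0.804-fold to 2.56-fold. It was 0.20 without Ash1l het replicate 1 and 0.86 without replicate 3.

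C4b has a neighbouring copy, C4a, and 35.2% of the 50-base windows of its longest GENCODE transcript also occur in C4a transcripts. The sources used here do not say how reads shared by both were counted. C4a had little signal, at 3.13, 3.13 and 3.52 CPM in Ash1l het and 3.56, 3.47 and 2.49 CPM in WT, a difference of 0.05 on the log2 scale (SE 0.24, edgeR adjusted p = 0.985). The ratio of C4b to C4a counts ran from 13.7 to 32 in WT and was 69.3, 117 and 16.2 in Ash1l het.

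The genes nearest to C4b by the centred root mean square difference were Gfap (0.27), which encodes the astrocyte intermediate filament, and Lyz2 (0.27), which encodes lysozyme. Alas2, Slc14a1 and Serpina3n followed at 0.42 to 0.47. Gfap stood at 412, 733 and 104 CPM in Ash1l het and at 154, 62.1 and 83.7 CPM in WT. Serpina3n, a protease inhibitor induced in reactive astrocytes, stood at 37.9, 66.7 and 13.7 CPM in Ash1l het and at 9.85, 5.74 and 7.53 CPM in WT.

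Of 12 reactive astrocyte genes, 10 were tested, 9 were higher by sign, 5 had an unadjusted p under 0.05, and 0 passed by the edgeR quasi-likelihood test. Over all tested genes, 51.4% were higher by sign, 5.78% had such an unadjusted p and 0.0131% passed. DESeq2 and edgeR's exact test called 0.183% and 0.269% of the genes they tested. DESeq2 called 4 of the 12 (Cp, Lcn2, Osmr and Vim), and edgeR's exact test called these and Serpina3n. Of the 10 tested, 5 were above WT in every Ash1l het library, replicate 3 included, which held for 6.18% of all tested genes. They were the same 5 genes, and the tests that called them used these same libraries. C4b was not above WT in replicate 3. Vim, an intermediate filament gene, had 27.9, 44.2 and 25.8 CPM in Ash1l het against 12.3 to 18.2 CPM in WT. The ceruloplasmin gene Cp had 23.7, 21.3 and 24.6 CPM in Ash1l het against 14.5 to 14.7 CPM in WT. The summed level of the list, most of it Gfap, was 542, 903 and 197 CPM in Ash1l het and 119 to 217 CPM in WT. General astrocyte markers (10 genes, led by Slc1a2, Aldoc, Atp1b2 and Slc1a3) summed to between 4478 and 5664 CPM in Ash1l het and between 4891 and 5702 CPM in WT. The 5 blood cell genes, led by the globins Hbb-bs, Hba-a1, Hbb-bt and Hba-a2, summed to 123, 110 and 56.1 CPM in Ash1l het and to 23.0 to 35.4 CPM in WT. All 5 had an unadjusted p under 0.05 and 0 passed by the edgeR quasi-likelihood test, while DESeq2 and edgeR's exact test called all 5. The part of either in the C4b and C3 values was not tested.

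**Figure D3:**
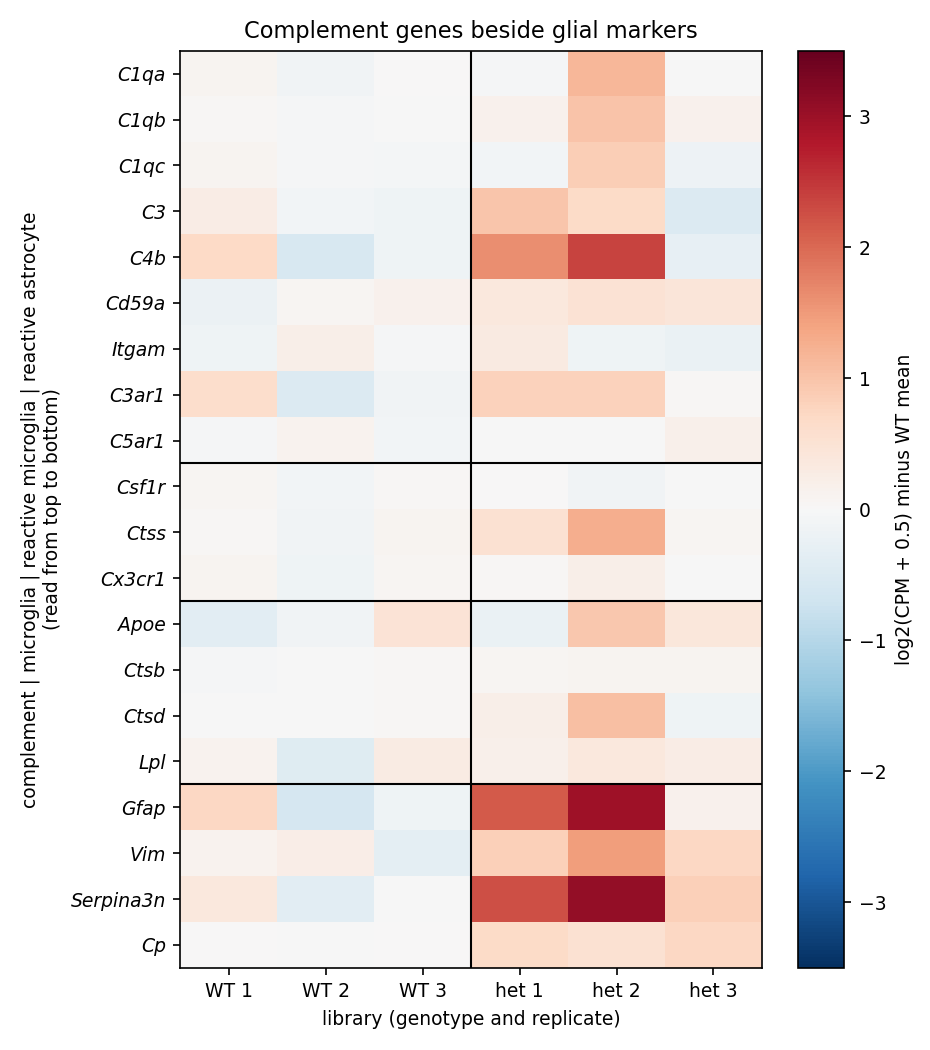
Colour gives log2(CPM + 0.5) minus the WT mean for the 9 complement genes and for 3 or 4 abundant markers each of microglia, reactive microglia and reactive astrocytes (rows), in each library (columns). C4b, Gfap and Serpina3n are raised most in Ash1l het replicates 1 and 2, and the C1q genes and Ctss are raised most in replicate 2. Serpina3n is also above WT in replicate 3.

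C3 followed other genes. Its nearest were Tnfaip6 (root mean square difference 0.15), Mpzl1, Zc3hav1, Tia1 and Rab2b (0.19 to 0.21). Its difference from C4b was 0.67, and from C3ar1, the receptor of its fragment C3a, it was 0.30.

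Cd59a, a membrane protein that blocks assembly of the terminal complement pore, had the smallest standard error of the 9 genes. It stood at 15.5, 17.4 and 16.2 CPM in Ash1l het and at 10.3, 12.6 and 13.4 CPM in WT, so the groups did not overlap. The means were 16.4 ± 0.956 and 12.1 ± 1.61 CPM (SD, n = 3 each). The log2 fold change was 0.44 (SE 0.15), or 1.35-fold with an interval from 1.08 to 1.70. Its edgeR p was 0.0152 unadjusted and 0.857 adjusted over all genes, so it did not pass.

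Leaving out single libraries moved the Cd59a log2 fold change between 0.33 and 0.52. Its paralogue Cd59b, which lies next to it, shared 3.98% of the 50-base windows of the longest Cd59a transcript and had 1.32 to 2.24 CPM in Ash1l het and 0.777 to 1.56 CPM in WT. The genes with the nearest pattern to Cd59a were Arpp19, Ddit3, Dbx2, Taf1d and Fam101b, at root mean square differences of 0.05 to 0.08. None of these is a complement gene.

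The receptors did not follow a common pattern. Itgam encodes CD11b, which pairs with the CD18 chain of Itgb2 to form complement receptor CR3 on microglia and other myeloid cells. It stood at 40.0, 29.0 and 27.0 CPM in Ash1l het and at 28.9, 36.6 and 30.9 CPM in WT, with overlapping groups. The Itgam difference was -0.01 on the log2 scale (SE 0.17, edgeR adjusted p = 0.996), and the 95% interval ran from 0.766-fold to 1.29-fold. Its sign changed with other scalings and left-out libraries, between -0.20 and 0.10. The model Gm49368 overlaps Itgam on the same strand, and 72.4% of the windows of the longest Itgam transcript also occur in it. Its row held at most 3 counts in any library, and the sources used here do not say how reads matching both were counted.

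The partner chain Itgb2 stood at 11.0, 14.9 and 9.18 CPM in Ash1l het and at 8.20, 7.23 and 7.47 CPM in WT. The groups did not overlap, and Itgb2 differed by 0.62 on the log2 scale (SE 0.20, edgeR adjusted p = 0.825). The FPKM ratio of Itgam to Itgb2 was 2.35, 1.26 and 1.91 in Ash1l het and 2.28, 3.27 and 2.67 in WT. Itgax, the chain that forms CR4 with Itgb2 and that was named after its values were seen, had 4.56, 8.40 and 0.660 CPM in Ash1l het against 2.15, 0.299 and 0.463 CPM in WT. Its difference was 2.31 on the log2 scale (SE 1.08, edgeR adjusted p = 0.877). The genes nearest to Itgam in pattern were Ifnar1, Ngly1, Lyrm1, Hspa8 and Ybx3, at root mean square differences of 0.04 to 0.06.

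C3ar1, the receptor for C3a, stood at 7.68, 7.62 and 4.29 CPM in Ash1l het and at 6.62, 2.81 and 3.76 CPM in WT. Ash1l het replicates 1 and 2 lay above WT, and replicate 3 lay inside its range. The C3ar1 difference was 0.59 on the log2 scale (SE 0.35, edgeR adjusted p = 0.889). It was 0.98 without WT replicate 1, the highest WT library, and 0.34 without WT replicate 2. The nearest gene to C3ar1 was Adgre1, which encodes the macrophage marker F4/80, at a root mean square difference of 0.17, followed by Dtx3l, Dock2, Hapln2 and Zc3hav1.

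C5ar1, the receptor for C5a, had few reads, with 17 to 31 counts a library. It stood at 1.43, 1.43 and 1.70 CPM in Ash1l het and at 1.41, 1.61 and 1.33 CPM in WT. The groups overlapped. C5ar1 differed by 0.07 on the log2 scale (SE 0.29, edgeR adjusted p = 0.982), with an interval from 0.664-fold to 1.66-fold.

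**Figure D4:**
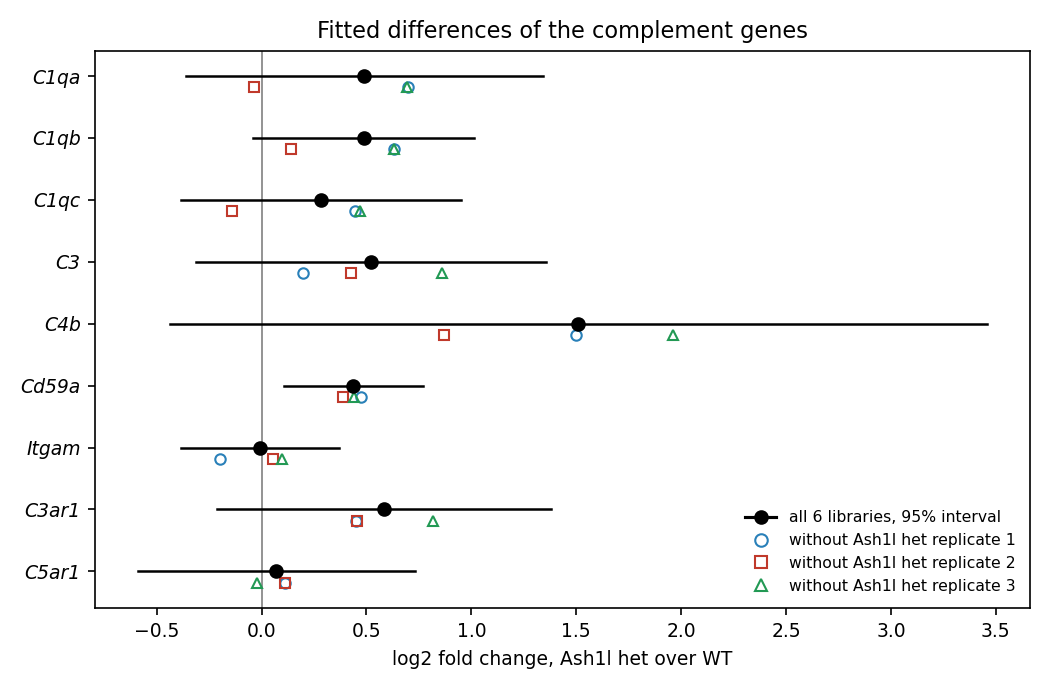
Log2 fold changes (Ash1l het over WT) of the 9 complement genes with 95% intervals from all 6 libraries (black), and values without each Ash1l het library (open symbols). The interval of Cd59a alone lies above 0, before adjustment over all genes, and the 3 C1q values without replicate 2 lie between -0.14 and 0.14.

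The rest of the pathway was read from 4 lists with 53 further genes, of which 29 passed the filter on low counts. Of these 29, 0 passed the edgeR test, where 0.0131% of all tested genes did. By sign 20 were higher and 9 lower, against 51.4% higher over all tested genes. The median log2 fold change was 0.09, against 0.01 for all tested genes. An unadjusted edgeR p under 0.05 was found for 4 of the 29, among them Itgb2, Sez6 and Csmd2, against 5.78% of all tested genes. DESeq2 and edgeR's exact test also called none, where they called 0.183% and 0.269% of the genes they tested. Every Ash1l het library lay above WT in 2 of the 29 (Itgb2 among them) and below WT in 2 (Sez6 and Csmd2), where 6.18% and 5.53% of all tested genes did so.

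Initiating proteases and lectins were scarce. Of 12 such genes, 4 were tested, and C1rb, Colec10, Mbl1 and Mbl2 had no count. By sign 4 of the 4 were higher, with a median log2 fold change of 0.40, against 51.4% higher over all tested genes. Masp1, a protease of the lectin pathway, was at 1.39 ± 0.116 FPKM in WT and 1.62 ± 0.377 FPKM in Ash1l het. C1ra, a protease of the C1 complex, was at 0.267 ± 0.0699 and 0.333 ± 0.0978 FPKM, and Masp2 at 0.143 ± 0.0267 and 0.352 ± 0.336 FPKM (SD, n = 3 each). The Masp2 mean in Ash1l het rests on replicate 1, at 2.92 CPM against 0.497 to 0.695 CPM in the other 5 libraries.

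Few other components passed the filter. Of 12 genes for C2, C4a, C5 (Hc), the terminal pathway and the alternative pathway, 2 were tested, and C6, C8a, C9 and Cfd had no count. By sign 2 of the 2 were higher, with a median log2 fold change of 0.07. Cfp, which encodes properdin, a stabiliser of the alternative pathway convertase, was the highest at 4.92 ± 0.934 FPKM in WT and 5.42 ± 0.852 FPKM in Ash1l het (log2 fold change 0.09, SE 0.18, edgeR adjusted p = 0.951). C4a was next at 0.389 ± 0.0713 FPKM in WT, and C7 had 0.282 ± 0.136 FPKM in WT and did not pass the filter.

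Regulators were the most abundant group. Clu, which encodes clusterin, a chaperone that also binds terminal complexes, was at 143 ± 14.2 FPKM in WT and 153 ± 24.4 FPKM in Ash1l het (log2 fold change 0.05, SE 0.13). Of 17 tested regulators, 11 were higher and 6 lower by sign. Sez6, a neuronal membrane protein with complement-control repeats, stood at 395, 430 and 488 CPM in Ash1l het and at 554, 605 and 598 CPM in WT. Its log2 fold change was -0.42 (SE 0.11), and its edgeR p was 0.00463 unadjusted and 0.741 adjusted, so it did not pass. Its relative Sez6l2 had -0.15 (SE 0.12).

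Csmd2, another neuronal protein with complement-control repeats, stood at 39.9, 34.0 and 44.0 CPM in Ash1l het and at 47.0, 50.9 and 45.6 CPM in WT. The Csmd2 difference was -0.28 on the log2 scale (SE 0.12, edgeR adjusted p = 0.857). The inhibitor genes C4bp and Cfi had no count. Among receptors and partners, Calr, which encodes calreticulin, a ligand of C1q, and the scavenger receptor Lrp1 differed by -0.13 (SE 0.11) and -0.08 (SE 0.13) on the log2 scale. Of the 6 tested in that list, 3 were higher and 3 lower by sign.

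Markers of other cells that can make complement were read from the same fit, and 0 genes of these lists passed by the edgeR quasi-likelihood test. Over all tested genes 0.0131% passed, 51.4% were higher by sign and 5.78% had an unadjusted p under 0.05 by that test. All 15 microglia markers were tested, 8 were higher and 7 lower by sign, 1 had an unadjusted p under 0.05, and the median log2 fold change was 0.08. Of 14 reactive microglia genes, led by Apoe, Ctsb, Ctsd and Lpl, 13 were higher by sign and 6 had an unadjusted p under 0.05, with a median of 0.91 and sums of 1758 to 2920 CPM in Ash1l het and 1567 to 2076 CPM in WT. DESeq2 and edgeR's exact test each called 1 gene of that list, Spp1, and 0 microglia or border macrophage markers. Of all the genes they tested, these 2 tests called 0.183% and 0.269%. Border macrophage and blood leukocyte markers summed to only 10.8 to 11.5 CPM in Ash1l het and 7.17 to 7.95 CPM in WT over 14 genes, led by Mrc1, Cd163, F13a1 and Ly6c2. Of the 3 that passed the filter, 3 were higher by sign. No marker of these lists was at 0 in all 6 libraries.

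Oligodendrocyte markers (10 genes, including Mobp, Mbp and Mal) summed to between 5998 and 8880 CPM in Ash1l het and between 5924 and 7353 CPM in WT. Endothelial markers (10 genes, led by Flt1, Slco1a4, Abcb1a and Vwf) summed to 303 to 386 CPM in Ash1l het and 247 to 302 CPM in WT. Choroid plexus and meningeal markers (11 genes, led by Ttr, Dcn, Col1a2 and Kl) summed to 33.7 to 36.1 CPM in Ash1l het and 31.5 to 46.7 CPM in WT. By sign, 9 of 10 oligodendrocyte, 9 of 10 endothelial, and 2 of 8 tested choroid plexus and meningeal genes were higher in Ash1l het. Over all tested genes 51.4% were. In these lists 1, 4 and 0 genes had an unadjusted edgeR p under 0.05, against 5.78% of all tested genes. DESeq2 and edgeR's exact test each called 1 gene of these lists, the endothelial Vwf, where they called 0.183% and 0.269% of the genes they tested. The part of these cells in the complement values was not tested.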

How the data were processed

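Libraries of dorsal striatum RNA (3 Ash1l het, 3 WT) were prepared with a kit that keeps strand, per the labels' protocols. The authors deposited raw read counts per gene, and FPKM for the same genes, per the file headers. CASAVA, FastQC, HISAT2, StringTie, edgeR and the build GRCm38 are named, per the submitters' processing notes; the sources used here give no role, version, strand setting or annotation. The per-sample count files matched the series table. Groups and replicate numbers came from the sample titles.

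Counts were fitted with edgeR 4.0.16 in R 4.3.3 (TMM, minimum count 10, robust quasi-likelihood, genotype as the single term) and adjusted by Benjamini-Hochberg over all tested genes. The steps were tested on simulated data. CPM used library totals of the tested genes times TMM factors. Intervals are 95% and use the degrees of freedom of the fit. Alternatives used DESeq2 1.42.0, limma 3.58.1 on log2(FPKM + 0.1) or log2(FPKM + 1) for genes with a mean of at least 0.5 FPKM, other scalings and filters, a replicate block, and left-out libraries.

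The members and lists were chosen with earlier results of these data known, so no test over a list is given. Named genes were Ash1l, all members, other complement genes with an unadjusted p under 0.05 or among the 3 highest FPKM of their list, the 4 most abundant markers of each list, and the 5 nearest genes in pattern (log2 CPM with 0.5 added). Itgax, genes called only by another test, genes without counts and near-identical copies were named after their values were seen. A few genes that the rule names are not reported here. Marker lists were microglia, reactive microglia, border macrophage and blood leukocyte, reactive astrocyte, astrocyte, oligodendrocyte, endothelial, blood cell, choroid plexus and meningeal, and striatal neuron genes. Windows shared between transcripts were 50 bases long and came from GENCODE M21.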

Additional observations from a re-analysis of the deposited data

How the results depend on the processing

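None of the 9 complement genes passed under any alternative run: DESeq2, the exact test of edgeR, RLE or upper-quartile scaling, other low-count filters, limma on FPKM, the replicate block, and each library left out. The smallest adjusted p of any of them was 0.244, for C3 without Ash1l het replicate 3. Over all genes, 2 passed by the quasi-likelihood test of edgeR; DESeq2 called 35, the exact test of edgeR 41, and fits without single libraries 1 to 13. Without Ash1l het replicate 2, C1qa and C1qc changed sign, and over left-out libraries C1qa ran from -0.036 to 0.70 and C1qc from -0.14 to 0.47; the cause was not tested. Itgam, near 0 throughout, turned positive with upper-quartile scaling (0.0058) and with limma (0.021 with a pseudocount of 0.1, with and without the filter, and 0.019 with 1), and ran from -0.20 to 0.10 over left-out libraries. C5ar1 became -0.023 without Ash1l het replicate 3 and reached 0.15 without WT replicate 2; its mean FPKM lay under the 0.5 limit, so both filtered limma fits gave it no value. The median of the other complement genes ran from 0.06 to 0.15 over the same alternatives. With a library of the same group left out, the mean C1q share ran from 71.6% to 79.7% in Ash1l het and from 81.5% to 84.0% in WT. The marker sums were recomputed with RLE scaling alone. Their log2 ratio (Ash1l het over WT) went from 0.158 to 0.153 for microglia markers and from 1.795 to 1.789 for reactive astrocyte markers.

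With the replicate number as a block, 3 genes and none of the complement genes passed, and C1qa, C1qb and C1qc had log2 fold changes of 0.37, 0.43 and 0.20. Deviations from the group means had correlations of 0.07, -0.08 and 0.01 between same-numbered libraries, and of -0.14 to 0.14 between differently numbered ones. Such values cannot tell whether same-numbered libraries share a litter, batch or day, and the labels do not say.

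Depth limits what can be said of genes with few counts: C5ar1 had 17 to 31 a library, and 24 of the 53 other complement genes did not pass the filter.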
